A study of Mus musculus with 15 samples.

Results

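Bone morphogenetic proteins (BMPs), the secreted proteins that bind and modulate them, and the Id genes that they induce were followed through endothelial, mesenchymal and passaged bone marrow cultures. The genes were 9 of the 44674 in the count table, chosen by symbol: the ligands Bmp2, Bmp4 and Bmp6, the secreted modulators Bmper, Grem1 and Nog, and the Id transcriptional regulators Id1, Id2 and Id3. All 9 passed the filter on low counts, as did 19401 genes in all.

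Bulk RNA was sequenced in 15 mouse libraries from 8 conditions. Bone marrow endothelial cells (BMECs) came from adult Tie2-CreERT2;Rosa26-tdTomato mice, in which a tamoxifen-inducible Cre is driven by the promoter of the endothelial receptor Tie2 and switches on a tdTomato reporter. Whole bone marrow was grown in EGM-2 endothelial medium to a confluent primary culture (P0) and sorted into tdTomato+ cells with or without surface endomucin (Emcn), giving P0 Emcn+ and P0 Emcn- BMECs. Emcn- BMECs were passaged further as P1, P2, P3 and P4, and lung endothelial cells, Emcn- by the study's methods, came from cultures of the same mouse line. Bone marrow mesenchymal stromal cells (MSC) were tdTomato+ CD45- cells from Osx-Cre;Rosa26-tdTomato mice, whose Cre is driven by the promoter of the osteoblast lineage gene Osterix, and were grown in MesenCult medium. The labels give the genotype of every sample as WT; mice were adults of both sexes by the study's methods, and a culture dish usually held the cells of 1 mouse. Each condition had 2 libraries, except P4 with 1.

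BMP ligands are secreted dimers that assemble type I and type II receptors, which phosphorylate Smad1, Smad5 and Smad9; these enter the nucleus with Smad4 and switch on target genes, the Id genes among the best known. Noggin (Nog) and gremlin 1 (Grem1) bind ligands outside the cell and keep them from the receptors, while Bmper, a secreted protein with chordin-like repeats, can oppose or enhance BMP action depending on its amount. In vessels, BMPs act on endothelial growth and identity, and in bone marrow they drive stromal cells toward bone.

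Library totals ran from 9914620 counts (P0 Emcn- replicate 2) to 39718807 (P0 Emcn- replicate 1), so that 3 counts, the most that a library listing 0 is taken to hide, equal 0.0755 to 0.303 CPM. Levels are in CPM, counts scaled to a common library total, given for replicate 1 and then replicate 2, while fold changes are log2 values from a fit with TMM scaling. The sorted populations differed in cell type markers. The summed CPM of 8 endothelial markers, all with counts in every library, was 11820 and 9940 in P0 Emcn+ BMECs but 255 and 69.2 in P0 Emcn- BMECs, 156 and 584 in lung cells, 42.0 and 348 in MSC and 44.7 to 70.0 over the 7 passaged libraries. The 6 mesenchymal stromal markers summed to 142 to 208 CPM in P0 Emcn+ BMECs and to between 2661 and 14070 CPM in every other library. Cdh5, the endothelial cadherin, was at 6222 and 5118 CPM in P0 Emcn+ BMECs. It was at 119 and 6.35 CPM in P0 Emcn- BMECs and at 1.13 and 2.33 CPM in P1. Not all 8 markers followed Cdh5. Tie1, Emcn and Egfl7 were also lower in P1 than in P0 Emcn- BMECs, whereas Pecam1, Tek, Kdr and Erg overlapped. Tek was at 20.3 and 49.4 CPM in P0 Emcn- BMECs and at 40.3 and 30.1 CPM in P1. Kdr was at 14.9 and 1.82 CPM in P0 Emcn- BMECs, 12.3 and 7.96 CPM in P1 and 30.1 and 15.5 CPM in P3. The cells labelled Emcn- BMECs and lung endothelial cells thus had low endothelial and high mesenchymal marker levels. In bulk RNA, fewer cells of a type and less RNA per cell cannot be told apart.

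The labels give 4 batches. P0 and lung libraries were in batches a and d, with each of these conditions in both, whereas passaged libraries were in batches b and c and both MSC libraries in batch c. Since batches a and d hold neither passaged nor MSC libraries, a difference of MSC or P1 cells from P0 Emcn- BMECs and a difference of batch cannot be told apart. The MSC also differed from the BMECs in medium and mouse line. Comparisons with P0 Emcn- BMECs share the same 2 control libraries.

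The genes lie on GRCm38 at chr2:133552159-133562885 (Bmp2, + strand), chr14:46383520-46390669 (Bmp4, - strand), chr13:38345107-38500302 (Bmp6, + strand), chr9:23223076-23485200 (Bmper, + strand), chr2:113746164-113758646 (Grem1, - strand), chr11:89300638-89302332 (Nog, - strand), chr2:152736251-152737410 (Id1, + strand), chr12:25093799-25097140 (Id2, - strand) and chr4:136143497-136145755 (Id3, + strand). Exons of Txndc5 and of noncoding genes on the opposite strand lie within the spans of Bmp6 and Bmp4, and reads of such genes cannot be told apart without strand, whose use in counting is not given in the sources used here. Promoter windows from RefSeq (GRCm38.p6) covered 6 of the 9 genes. The 250 bases before the start are printed for Bmp4, Bmper and Grem1, the genes whose window is free of annotated exons and whose levels set the cultures apart below. Capitals mark a match to the searched motifs GGCGCC (a Smad-type GC motif), GTCTAGAC (the palindromic Smad box) and CACGTG (an E-box), each of which reads the same on both strands.
Bmp4, chr14:46390670-46390919, - strand: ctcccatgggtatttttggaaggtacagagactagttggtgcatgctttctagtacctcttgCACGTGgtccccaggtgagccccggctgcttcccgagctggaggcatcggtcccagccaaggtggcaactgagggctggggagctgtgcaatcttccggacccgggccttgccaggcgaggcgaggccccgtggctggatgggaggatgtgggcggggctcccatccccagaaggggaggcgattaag
Grem1, chr2:113758649-113758898, - strand: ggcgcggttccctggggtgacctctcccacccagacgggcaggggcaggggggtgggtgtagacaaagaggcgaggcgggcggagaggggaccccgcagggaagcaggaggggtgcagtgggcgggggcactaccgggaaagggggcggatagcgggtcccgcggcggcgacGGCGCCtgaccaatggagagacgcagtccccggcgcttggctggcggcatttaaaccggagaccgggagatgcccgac
Bmper, chr9:23222826-23223075, + strand: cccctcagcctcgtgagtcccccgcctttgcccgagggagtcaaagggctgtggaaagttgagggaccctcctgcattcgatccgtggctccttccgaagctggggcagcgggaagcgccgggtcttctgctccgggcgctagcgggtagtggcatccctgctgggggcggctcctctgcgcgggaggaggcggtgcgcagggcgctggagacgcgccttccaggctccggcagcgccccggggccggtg
The Bmp4 window held 1 CACGTG starting at position -188 from the gene's start, the Grem1 window held 1 GGCGCC at -78, and the Bmper window held no match. Over all 32851 windows of this length, 6.02% held CACGTG, 9.59% held GGCGCC and 0.167% held GTCTAGAC. All 3 windows were rich in G and C, at 63.2% (Bmp4), 72% (Grem1) and 71.6% (Bmper) against a median of 52.4% over all windows.

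By role, the ligand Bmp2 had its highest mean level in P0 Emcn+ BMECs and Bmp4 in MSC, with P0 Emcn+ BMECs next and overlapping, while Bmper stood high in Emcn- and lung cells and near 0 in P0 Emcn+ BMECs. Per kilobase of exon, mean levels of the 9 genes within P0 Emcn+ BMECs were led by Id3 (57.4 and 54.4 CPM per kb), with Id1 (57.1 and 24.5), Bmp4 (27.3 and 46.3) and Bmp2 (34.6 and 28.8) next. In P0 Emcn- BMECs the order was led by Id3 again (126 and 150 CPM per kb), then Id1 (56.4 and 39.8) and Bmper (33.3 and 43.2), and the 2 ligands were at 1.25 and 0.880 (Bmp2) and 0.661 and 2.15 CPM per kb (Bmp4).

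**Figure D1:**
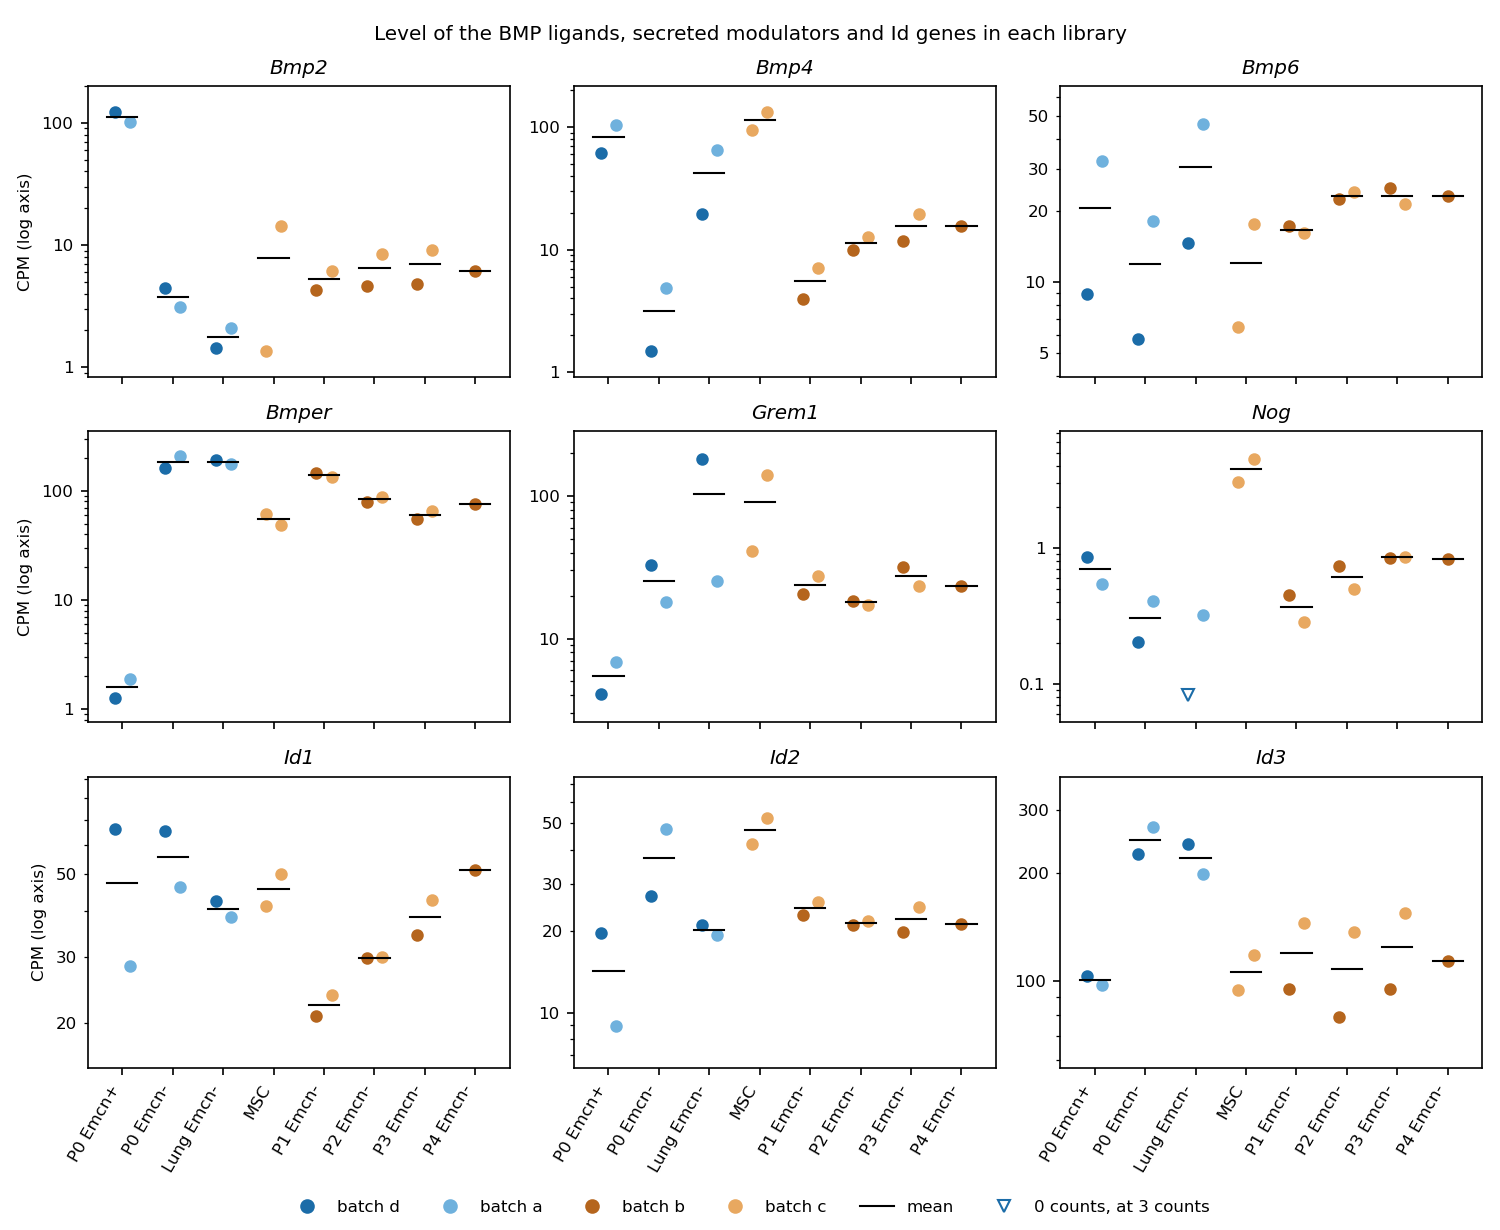
Level of each of the 9 genes in each of the 15 libraries, in CPM on a log axis, with conditions along the horizontal axis, points colored by batch and a line at the mean of each condition. Bmp2 stands at 102 to 123 CPM in P0 Emcn+ BMECs and at 14.3 CPM or less in all other libraries, whereas Bmper is at 1.27 to 1.89 CPM in P0 Emcn+ BMECs and at 48.9 CPM or more in the others; the open triangle marks a library with 0 counts of Nog, drawn at the CPM of 3 counts.

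The Emcn+ and Emcn- fractions sorted from primary cultures were compared first. Whether the 2 fractions of a replicate came from the same culture is not given in the labels, and the fit did not pair them. Bmp2 and Bmp4 rose and Bmper fell in Emcn+ cells, and the other 6 genes were not called. With a call defined by a Benjamini-Hochberg adjusted p under 0.05 in edgeR's quasi-likelihood test and an absolute log2 fold change above 1.5, 2 of the 9 genes were called higher and 1 lower in the Emcn+ fraction. Of all genes tested, 7.79% were called higher and 11.4% lower. The median log2 fold change was -0.20 over the 9 genes and -0.06 over all genes tested.

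Bmp2, a ligand with strong bone-inducing activity, was at 123 and 102 CPM in the Emcn+ libraries and at 4.43 and 3.13 CPM in the Emcn- libraries. The fractions lay far apart, the ratio being 27.8 in batch d and 32.8 in batch a. This gave a log2 fold change of 4.90 (SE 0.879, edgeR quasi-likelihood adjusted p = 0.00177). Bmp4, the ligand most used in mesoderm and vessel development, was at 61.5 and 104 CPM against 1.49 and 4.84 CPM, again without overlap. Its log2 fold change was 4.89 (SE 0.715, edgeR adjusted p = 0.000515), with a ratio of 41.4 in batch d and 21.5 in batch a. Bmp6, known for its part in iron control by endothelial cells, was at 8.90 and 32.2 CPM against 5.74 and 18.1 CPM. The libraries of the 2 groups overlapped, with replicate 2 above replicate 1 in each, although within the batches the Emcn+ library was the higher, by a ratio of 1.55 in batch d and 1.78 in batch a. The log2 fold change of 0.85 (SE 0.736) was not called (edgeR adjusted p = 0.423); it was -0.33 without P0 Emcn+ replicate 2.

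Bmper went the other way. It was at 1.27 and 1.89 CPM in P0 Emcn+ BMECs and at 161 and 209 CPM in P0 Emcn- BMECs, which is a log2 fold change of -6.84 (SE 0.260, edgeR adjusted p = 2.1e-07). The log2 ratio was -6.99 in batch d and -6.78 in batch a. Grem1 was at 4.06 and 6.84 CPM against 33.0 and 18.0 CPM, so that the groups did not overlap. Its log2 fold change of -2.21 (SE 0.818) missed the threshold in edgeR's quasi-likelihood test (adjusted p = 0.0612) but passed in DESeq2's Wald test (log2 fold change -2.16, adjusted p = 0.01). Nog was low in both fractions, at 0.856 and 0.541 CPM against 0.201 and 0.403 CPM, the latter resting on 8 and 4 counts. Its difference, 1.40 on the log2 scale (SE 0.915), was not called (edgeR adjusted p = 0.28).

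The Id genes, which encode inhibitors of basic helix-loop-helix factors, were called in neither direction. Id1 was at 66.3 and 28.4 CPM in P0 Emcn+ BMECs and at 65.4 and 46.2 CPM in P0 Emcn- BMECs, overlapping, with a log2 fold change of -0.20 (edgeR adjusted p = 0.69). Its sign turned with the libraries used, the value being 0.29 when replicate 2 of P0 Emcn+ was left out and 0.09 when replicate 1 of P0 Emcn- was. Id2 was at 19.7 and 8.93 CPM against 27.1 and 47.7 CPM, without overlap. At -1.34 on the log2 scale (SE 0.348), it passed the p threshold (edgeR adjusted p = 0.0136) but not the fold limit, which it passed at -1.68 without P0 Emcn- replicate 1 and at -2.01 without P0 Emcn+ replicate 1. Id3 was at 103 and 97.4 CPM against 226 and 268 CPM, close within each fraction and apart between them. A log2 fold change of -1.27 (SE 0.298, edgeR adjusted p = 0.00792) also lay under the fold limit. Endothelial markers (above) moved with Bmp2 and Bmp4 between the fractions, as did a list of 6 macrophage markers, at 486 to 522 CPM in the Emcn+ and 198 to 247 CPM in the Emcn- fraction, and mesenchymal markers moved with Bmper; their part in these differences was not tested.

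**Figure D2:**
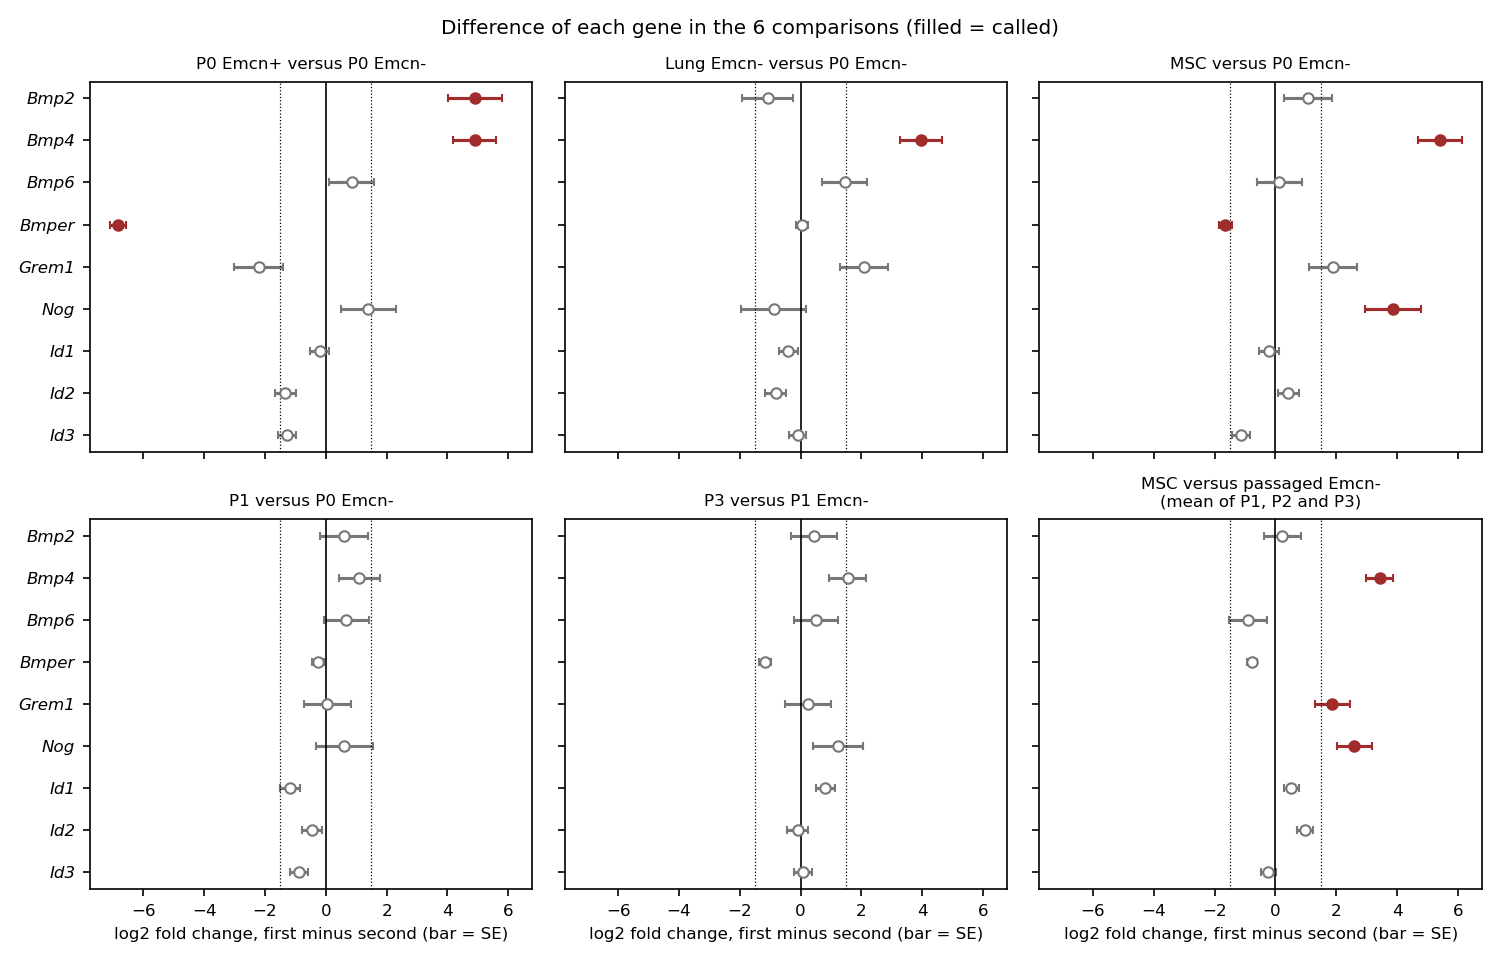
Log2 fold change of each gene (horizontal axis, the group named first minus the second, bars showing 1 SE) in the 6 comparisons, with filled points for called genes and dotted lines at the fold limit of 1.5 in either direction. Bmp4 is called higher in 4 of the 6 panels, and no gene is called in the comparisons of P1 with P0 or of P3 with P1.

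Lung cultures, Emcn- by the study's methods, were set beside P0 Emcn- BMECs. The Emcn transcript was at 32.6 and 125 CPM in lung cells, against 12.7 and 2.52 CPM in P0 Emcn- BMECs. The groups thus differed in Emcn level as well as in organ, and the part of either in the differences was not tested. Bmp4 was called higher in the lung cells, and no other of the 9 genes was called. Thus 1 of the 9 was called higher and 0 lower, against 2.13% and 1.7% of all genes tested, and DESeq2 called 0 lower. At an unadjusted p under 0.05, edgeR gave Bmp4 and Grem1 higher and Id2 lower. The share of all genes at that unadjusted limit was not counted, so no excess among the 9 can be read from it. The median log2 fold change was -0.10 over the 9 genes and 0 over all genes.

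Bmp4 was at 19.7 and 65.2 CPM in lung cells and at 1.49 and 4.84 CPM in P0 Emcn- BMECs. All lung values lay above all P0 Emcn- values, and the ratio was 13.3 in batch d and 13.5 in batch a, so the spread between replicates ran with the batches. In the fit, the log2 fold change was 3.95 (SE 0.692, edgeR adjusted p = 0.0107). The call was lost at 3.19 without P0 Emcn- replicate 1 (edgeR adjusted p = 0.0651) and at 3.88 when only these 2 groups were fitted (edgeR adjusted p = 0.14). Bmp6 also kept its ratio in each batch, with 2.54 in batch d and 2.57 in batch a, from 14.6 and 46.4 CPM against 5.74 and 18.1 CPM. The groups overlapped and the log2 fold change of 1.45 (SE 0.743) was not called (edgeR adjusted p = 0.351). Bmp2 was at 1.44 and 2.07 CPM, its lowest mean of the 8 conditions, with a log2 fold change of -1.09 that was not called (edgeR adjusted p = 0.564).

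Bmper was at 190 and 175 CPM in lung cells, within the 161 to 209 CPM of P0 Emcn- BMECs. Its log2 fold change was 0.05 (SE 0.195, edgeR adjusted p = 0.952) and became -0.02 with library totals in place of TMM scaling, so no direction is given. Grem1 differed more between the 2 lung libraries, at 180 and 25.5 CPM, than between the groups. A log2 fold change of 2.08 (SE 0.795) was not called by edgeR (adjusted p = 0.193), was called by DESeq2's Wald test (2.07, adjusted p = 0.042), and was 2.89 without lung replicate 2 (edgeR adjusted p = 0.0339). Nog had 0 counts in lung replicate 1, where 3 counts equal 0.0828 CPM, and 7 counts in replicate 2. Id1 was at 42.4 and 38.5 CPM, Id2 at 21.0 and 19.4 CPM and Id3 at 241 and 199 CPM in lung cells. Id1 and Id2 lay under all P0 Emcn- values, and of the Id3 values 1 lay between those of P0 Emcn- BMECs and 1 under both, with log2 fold changes of -0.40, -0.81 and -0.10, none of them called (edgeR adjusted p = 0.247 for Id2 and 0.925 for Id3). Lung replicate 2, with the higher Bmp4, also had the higher endothelial marker sum (584 against 156 CPM) and Cdh5 level (171 against 39.5 CPM). In P0 Emcn- BMECs, replicate 2 had the higher Bmp4 but the lower endothelial marker sum (69.2 against 255 CPM). The part of endothelial marker level in the Bmp4 difference was not tested.

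MSC were the reference for marrow stroma. They had the highest mean levels of Bmp4, Nog and Id2 among the 8 conditions and less Bmper than P0 Emcn- BMECs. Against P0 Emcn- BMECs, 2 of the 9 genes were called higher (Bmp4 and Nog) and 1 lower (Bmper), beside 11.3% and 7.45% of all genes tested. Against the mean of P1, P2 and P3, 3 were called higher (Bmp4, Nog and Grem1) and 0 lower, beside 8.42% and 5.81% of all genes, with Bmper and Id2 as the further genes that passed the p threshold of edgeR alone. The median log2 fold change over the 9 genes was 0.43 and 0.53 in these comparisons, and 0.01 over all genes in both.

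Bmp4 was at 94.4 and 133 CPM in MSC, against 1.49 and 4.84 CPM in P0 Emcn- BMECs and 3.96 to 19.7 CPM over the 6 P1 to P3 libraries. No Emcn- library of any passage reached the MSC level. On the log2 scale the fold change was 5.41 against P0 Emcn- BMECs (SE 0.728, edgeR adjusted p = 0.000516) and 3.43 against the passaged cells (SE 0.432, edgeR adjusted p = 0.00036). Within batch c, which holds both MSC libraries and 1 library each of P1, P2 and P3, the ratio of means was 8.65. Nog was at 3.06 and 4.50 CPM in MSC and at 0.856 CPM or less in every other library. Its log2 fold change was 3.88 against P0 Emcn- BMECs (SE 0.913, edgeR adjusted p = 0.00917) and 2.60 against passaged cells (SE 0.565, edgeR adjusted p = 0.00643). Both calls hung on a library, being lost at 3.30 without P0 Emcn- replicate 1 (edgeR adjusted p = 0.0783) and at 2.33 without MSC replicate 2 (edgeR adjusted p = 0.0556).

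Grem1 was at 41.0 and 139 CPM in MSC and at 17.3 to 31.6 CPM in the P1 to P3 libraries. Both MSC values were the higher, but they differed from each other by more than the lower of them did from the passaged cells. Against passaged cells the log2 fold change was 1.88 (SE 0.574, edgeR adjusted p = 0.0311). It was 0.78 without MSC replicate 2 (edgeR adjusted p = 0.51) and 1.92 with the replicate block (edgeR adjusted p = 0.0616), and leaving out any of P1 replicate 1, P1 replicate 2, P2 replicate 1, P2 replicate 2 and P3 replicate 2 also ended the call, at 1.80 to 1.94. Against P0 Emcn- BMECs the log2 fold change of 1.88 (SE 0.790) was not called by edgeR (adjusted p = 0.0878) and was by DESeq2 (1.95, adjusted p = 0.0216). Bmper was at 61.9 and 48.9 CPM in MSC, under every P0 Emcn- and P1 library. Its change was -1.64 on the log2 scale against P0 Emcn- BMECs (SE 0.200, edgeR adjusted p = 0.0003), which moved inside the fold limit at -1.47 without P0 Emcn- replicate 2 and at -1.46 without MSC replicate 2. Against passaged cells it was -0.77 (SE 0.167, edgeR adjusted p = 0.00644), under the fold limit.

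Bmp2 split the MSC libraries, at 1.35 and 14.3 CPM. In the fit, its log2 fold change against P0 Emcn- BMECs was 1.08 (SE 0.784, edgeR adjusted p = 0.303) but 1.95 without MSC replicate 1 (edgeR adjusted p = 0.0133) and -1.41 without MSC replicate 2, so its direction rests on a single library. Against passaged cells it was 0.23 (edgeR adjusted p = 0.818), -0.09 with the replicate block and -2.25 without MSC replicate 2 (edgeR adjusted p = 0.0123). MSC replicate 2 had an endothelial marker sum of 348 CPM against 42.0 in replicate 1, and Cdh5 at 156 against 7.86 CPM; the part of this in the Bmp2 level was not tested. Bmp6 was at 6.46 and 17.5 CPM and was not called in either comparison, with log2 fold changes of 0.13 and -0.90. Id1 was at 41.2 and 50.01 CPM, Id2 at 41.9 and 52.4 CPM and Id3 at 93.9 and 118 CPM. For Id2 the MSC libraries lay above every P1 to P3 library, with a log2 fold change of 0.96 (SE 0.264, edgeR adjusted p = 0.0194) that stayed under the fold limit. Id3 lay under both P0 Emcn- libraries with a log2 fold change of -1.14 (SE 0.297, edgeR adjusted p = 0.0147), also under the limit, and amid the passaged libraries. Id1 overlapped the P0 Emcn- libraries, with a log2 fold change of -0.21 (edgeR adjusted p = 0.647), and had 0.53 against passaged cells (edgeR adjusted p = 0.145).

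Passaging was followed in Emcn- BMECs from P0 to P4. None of the 9 genes was called between P0 and P1 or between P1 and P3, yet within each batch Bmp4 was at a higher level, and Bmper at a lower one, at P3 than at P1. Between P0 and P1, 0 of the 9 were called in either direction, beside 5.77% of all genes higher and 3.07% lower in P1; edgeR gave Id1 and Id3, both lower, at an unadjusted p under 0.05, and DESeq2 called 0. Between P1 and P3, 0 were called, beside 0.0773% higher and 0.144% lower in P3, DESeq2 also called 0, and Bmp4, Bmper and Id1 had an unadjusted p under 0.05 in edgeR. For both comparisons, the share of all genes at an unadjusted p under 0.05 was not counted. The number of genes called in all was 43 for P3 against P1, and 0 without P3 replicate 1 or without P1 replicate 2. The median log2 fold change of the 9 genes was 0.05 for P1 against P0 and 0.44 for P3 against P1, with 0.02 and -0.01 over all genes. Library totals in place of TMM scaling moved the median of all genes by -0.14 for P1 against P0.

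Bmp4 was at 3.96 and 7.07 CPM in P1, 9.89 and 12.6 CPM in P2, 11.7 and 19.7 CPM in P3 and 15.5 CPM in the P4 library. In batch b the level was higher at each later passage up to P4, and in batch c up to P3. P3 was 2.95 times P1 in batch b and 2.79 times in batch c, and P4 was 3.93 times P1 in batch b. In the fit, P3 against P1 had a log2 fold change of 1.54 (SE 0.610, edgeR adjusted p = 0.308) and 1.55 with the replicate block, where it was called (edgeR adjusted p = 0.0481). Against P0 Emcn- BMECs (1.49 and 4.84 CPM) P1 was not called, with a log2 fold change of 1.10 (SE 0.664, edgeR adjusted p = 0.267). Bmp2 was at 4.28 and 6.17 CPM in P1 and at 4.83 and 9.11 CPM in P3, ratios of 1.13 in batch b and 1.48 in batch c, with a log2 fold change of 0.44 (edgeR adjusted p = 0.861). Bmp6 was at 17.2 and 16.0 CPM in P1 and between 21.3 and 25.0 CPM in all libraries of P2 to P4. No P1 library reached the later passages, but the log2 fold change of P3 against P1, 0.52 (SE 0.719), was not called (edgeR adjusted p = 0.815).

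Bmper was at 145 and 133 CPM in P1, 79.1 and 88.1 CPM in P2, 55.2 and 65.1 CPM in P3 and 75.4 CPM in P4. The levels of P1, P2 and P3 did not overlap, and P4 lay between P3 and P2. For P3 against P1 the log2 fold change was -1.17 (SE 0.198, edgeR adjusted p = 0.0497), under the fold limit, with log2 ratios of -1.39 in batch b and -1.03 in batch c. Grem1 stayed between 17.3 and 31.6 CPM in all passaged libraries, beside 33.0 and 18.0 CPM in P0 Emcn- BMECs, and Nog between 0.287 and 0.851 CPM. The log2 fold changes of P3 against P1 were 0.25 for Grem1 and 1.23 (SE 0.824, edgeR adjusted p = 0.573) for Nog, which had 23 counts in P1 and 53 in P3.

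Id1 was at 20.9 and 23.9 CPM in P1, 29.8 and 30.1 CPM in P2, 34.5 and 42.6 CPM in P3 and 51.3 CPM in P4. It was thus lower in P1 than in P0 Emcn- BMECs (65.4 and 46.2 CPM), and its levels at successive passages did not overlap. Its log2 fold change was -1.17 for P1 against P0 (SE 0.329, edgeR adjusted p = 0.0376), under the fold limit, and 0.82 for P3 against P1 (SE 0.327, edgeR adjusted p = 0.312). Id2 was level over passages, at 19.9 to 25.7 CPM in the 7 libraries, against 27.1 and 47.7 CPM in P0. Id3 differed more by batch than by passage, at 78.9 to 113 CPM in batch b and 137 to 154 CPM in batch c. For P1 against P0, log2 fold changes were -0.46 for Id2 (edgeR adjusted p = 0.371) and -0.89 (SE 0.295, edgeR adjusted p = 0.0621) for Id3. Macrophage markers, at 198 to 247 CPM in P0 Emcn- BMECs, were at 67.6 and 225 CPM in P1 and at 8.66 to 37.7 CPM from P2 on, and the mesenchymal marker sum was 4546 to 4716 CPM in P1 and 2661 to 2845 CPM in P3; the part of these in the levels above was not tested.

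**Figure D3:**
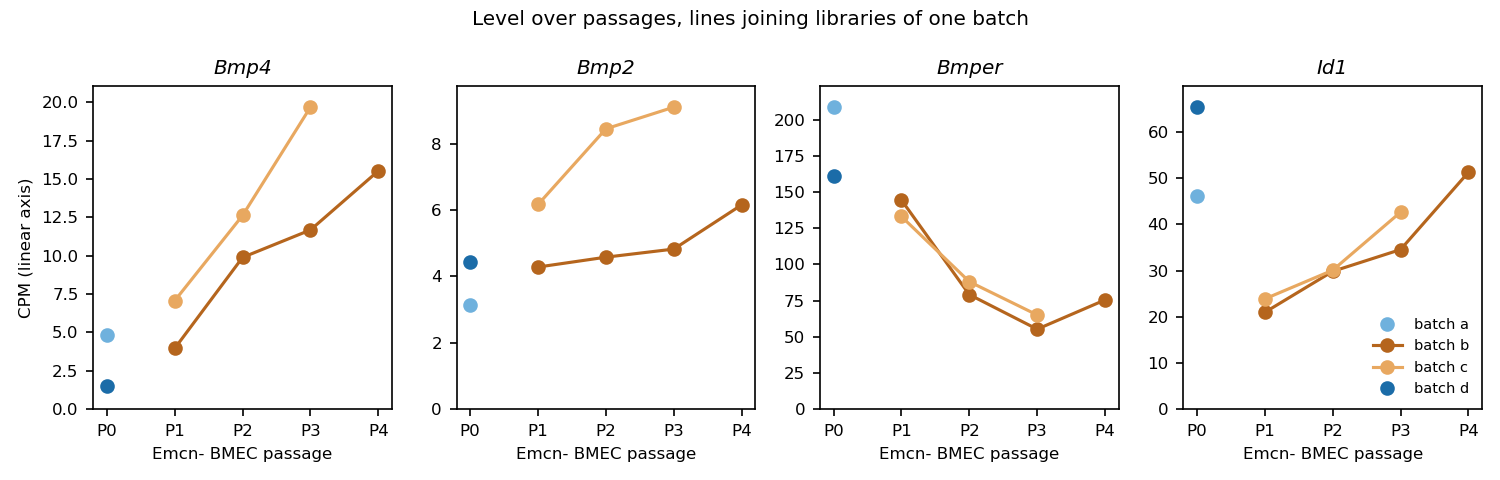
Level of Bmp4, Bmp2, Bmper and Id1 (vertical axes, CPM, linear from 0) in Emcn- BMECs at P0 to P4, with points colored by batch and lines joining libraries of the same batch, batch b reaching P4 and batch c P3. Bmp4 goes from 3.96 to 15.5 CPM in batch b and from 7.07 to 19.7 CPM in batch c, Bmper lies under its P1 level in each later library, and the P0 points are of other batches.

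Ligand and modulator levels were then set side by side on a scale that allows sums over genes, CPM per kilobase of exon. In P0 Emcn+ BMECs, Bmp2, Bmp4 and Bmp6 summed to 64.3 and 83.4 CPM per kb, and Bmper, Grem1 and Nog to 1.74 and 2.36 CPM per kb, a ratio of 36.8 and 35.4. In P0 Emcn- BMECs the ligands summed to 3.38 and 7.66 and the modulators to 41.4 and 47.7 CPM per kb, a ratio of 0.0816 and 0.160. In the ratio of these 3 ligands to 3 modulators, P0 Emcn+ BMECs thus stood above every other library. P0 Emcn- BMECs stood at the low end, with lung replicate 1, at 0.156, between their 2 libraries. In the sums themselves, lung replicate 1 had the highest modulator level (82.8 CPM per kb). The ligand sum of MSC replicate 2 (67.6 CPM per kb) lay above that of P0 Emcn+ replicate 1. The ratios depend on which genes are summed. Crim1, a membrane protein with chordin-like repeats outside the sums, had a mean of 153 CPM per kb in P0 Emcn+ and 13.5 CPM per kb in P0 Emcn- BMECs. Of the 12 other secreted antagonists and modulators tested, Crim1 was the 1 called higher in P0 Emcn+ BMECs, and 7 were called lower. MSC had ratios of 1.80 and 1.46, with both sums high (44.0 and 67.6 for ligands, 24.5 and 46.4 CPM per kb for modulators). The lung libraries had ratios of 0.156 and 0.974, a spread that came with both Bmp4 and Grem1. In passaged cells the ratios of P1 were 0.210 and 0.262, those of P2 0.537 and 0.623, those of P3 0.663 and 0.855 and that of P4 0.669, without overlap between P1, P2 and P3. The sums hold transcript levels and not secreted protein, and no test was made of them.

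**Figure D4:**
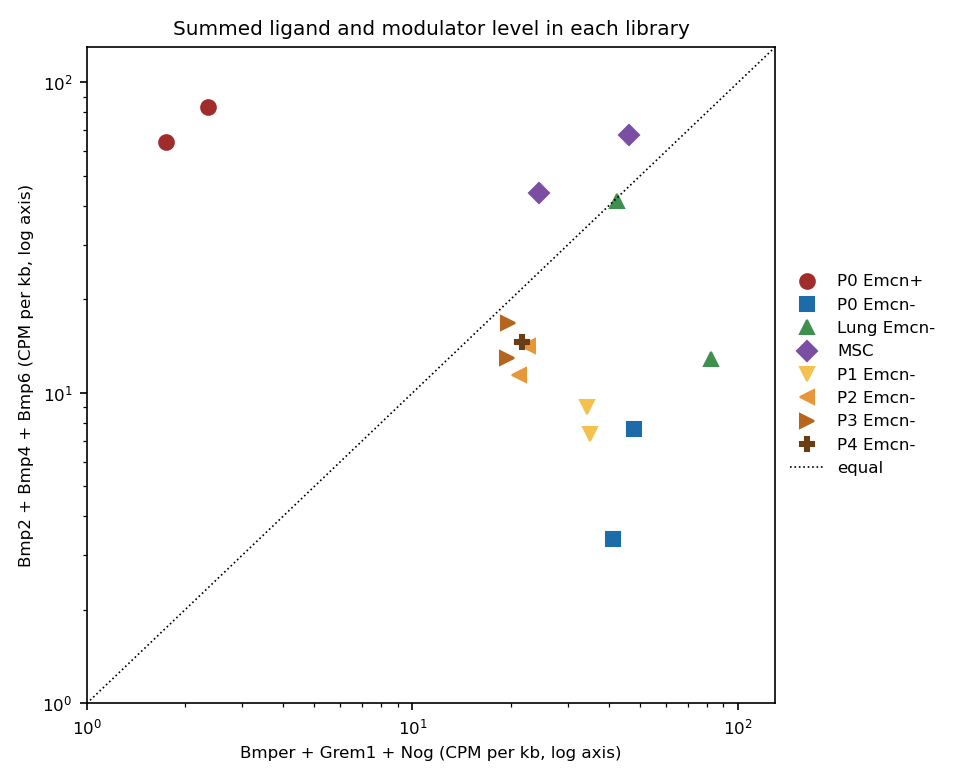
Summed level of the 3 ligands (vertical axis) against that of the 3 secreted modulators (horizontal axis), both in CPM per kb of exon on log axes, with 1 point per library, symbols by condition and a dotted line where the sums are equal. The P0 Emcn+ libraries lie far above the line at ratios of 36.8 and 35.4, the MSC libraries just above it at 1.80 and 1.46, and every other library under it, lung replicate 2 nearly on it at 0.974.

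Other genes of the pathway, 53 in 6 lists by role, were counted in the same fits. In P0 Emcn+ against P0 Emcn- BMECs, the list with the most calls was that of other secreted antagonists and modulators. Of its 12 tested genes (14 listed), 7 were called lower and 1 higher, beside 11.4% and 7.79% of all genes tested. The median log2 fold change was -2.54, or -3.39 over the 10 with counts that allow a fold. Fst (follistatin), which binds activins and some BMPs, was at 2.79 and 6.92 CPM against 145 and 422 CPM, a log2 fold change of -5.84 (edgeR adjusted p = 4.7e-05). Kcp, a chordin-like secreted protein, was at 0.0951 and 0.0773 CPM against 5.36 and 12.6 CPM (log2 fold change -6.57, edgeR adjusted p = 3.33e-05). Its Emcn+ values rest on 5 counts in all, so the size of its fold is uncertain. Chrdl1, a chordin-like BMP antagonist, was at 0.475 and 0.773 CPM against 3.07 and 64.1 CPM, so that the Emcn- libraries lay far from each other (log2 fold change -5.69, edgeR adjusted p = 0.00533). Its fold change was -2.28 without P0 Emcn- replicate 2, and the call was lost at -5.35 without P0 Emcn+ replicate 1 (edgeR adjusted p = 0.0524) and at -5.70 when only these groups were fitted (edgeR adjusted p = 0.0567). The gene of this list called higher was Crim1, a membrane protein with chordin-like repeats, at 694 and 1137 CPM against 55.6 and 107 CPM (log2 fold change 3.53, edgeR adjusted p = 0.000167).

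Of 10 tested receptors and co-receptors, 1 was called higher and 3 lower, beside 7.79% and 11.4% of all genes tested. Eng (endoglin), the endothelial co-receptor, was at 580 and 754 CPM in the Emcn+ and 79.4 and 93.6 CPM in the Emcn- fraction (log2 fold change 2.98, edgeR adjusted p = 2.68e-05). Bmpr1a, a type I receptor for Bmp2 and Bmp4, was at 3.17 and 2.94 CPM against 155 and 159 CPM (-5.65, 1.66e-07). P0 Emcn+ BMECs thus had the highest Bmp2 and the lowest Bmpr1a level of the 8 conditions, whereas Bmpr2, the type II receptor, was at 320 and 241 CPM against 198 and 163 CPM and was not called. Rgma, a further co-receptor, had a log2 fold change of -3.74 (edgeR adjusted p = 0.000812), and Bmpr1b had 1 count against 17.

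Among the 4 Smads that carry the signal, Smad1 was called higher and Smad9 lower. For this list and those that follow, the shares of all genes tested were 7.79% higher and 11.4% lower. Smad1 was at 353 and 355 CPM against 62.4 and 60.9 CPM (log2 fold change 2.55, edgeR adjusted p = 1.1e-06), and Smad9 at 0.475 and 0.386 CPM against 12.9 and 16.1 CPM (-5.01, 1.66e-06). Of the 5 inhibitors, Bambi, a decoy receptor, was called higher at 36.4 and 19.4 CPM against 5.41 and 4.03 CPM (2.58, 0.00156), and Smad6, an inhibitory Smad, lower at 6.46 and 6.30 CPM against 30.1 and 44.0 CPM (-2.50, 0.000362). Of 8 further genes known to be induced by BMPs, 0 were called higher and 3 lower by edgeR, namely Tmem100 (-5.23), Atoh8 (-3.22) and Dlx5, with a median of -1.25. Of 8 other ligands tested (11 listed), 0 were called higher and 3 lower: Bmp5 (log2 fold change -3.47, edgeR adjusted p = 0.000777), Bmp8a, and Gdf7, which had 0 counts in P0 Emcn+ BMECs and was at least 7.71-fold lower against 3 counts over the group.

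**Figure D5:**
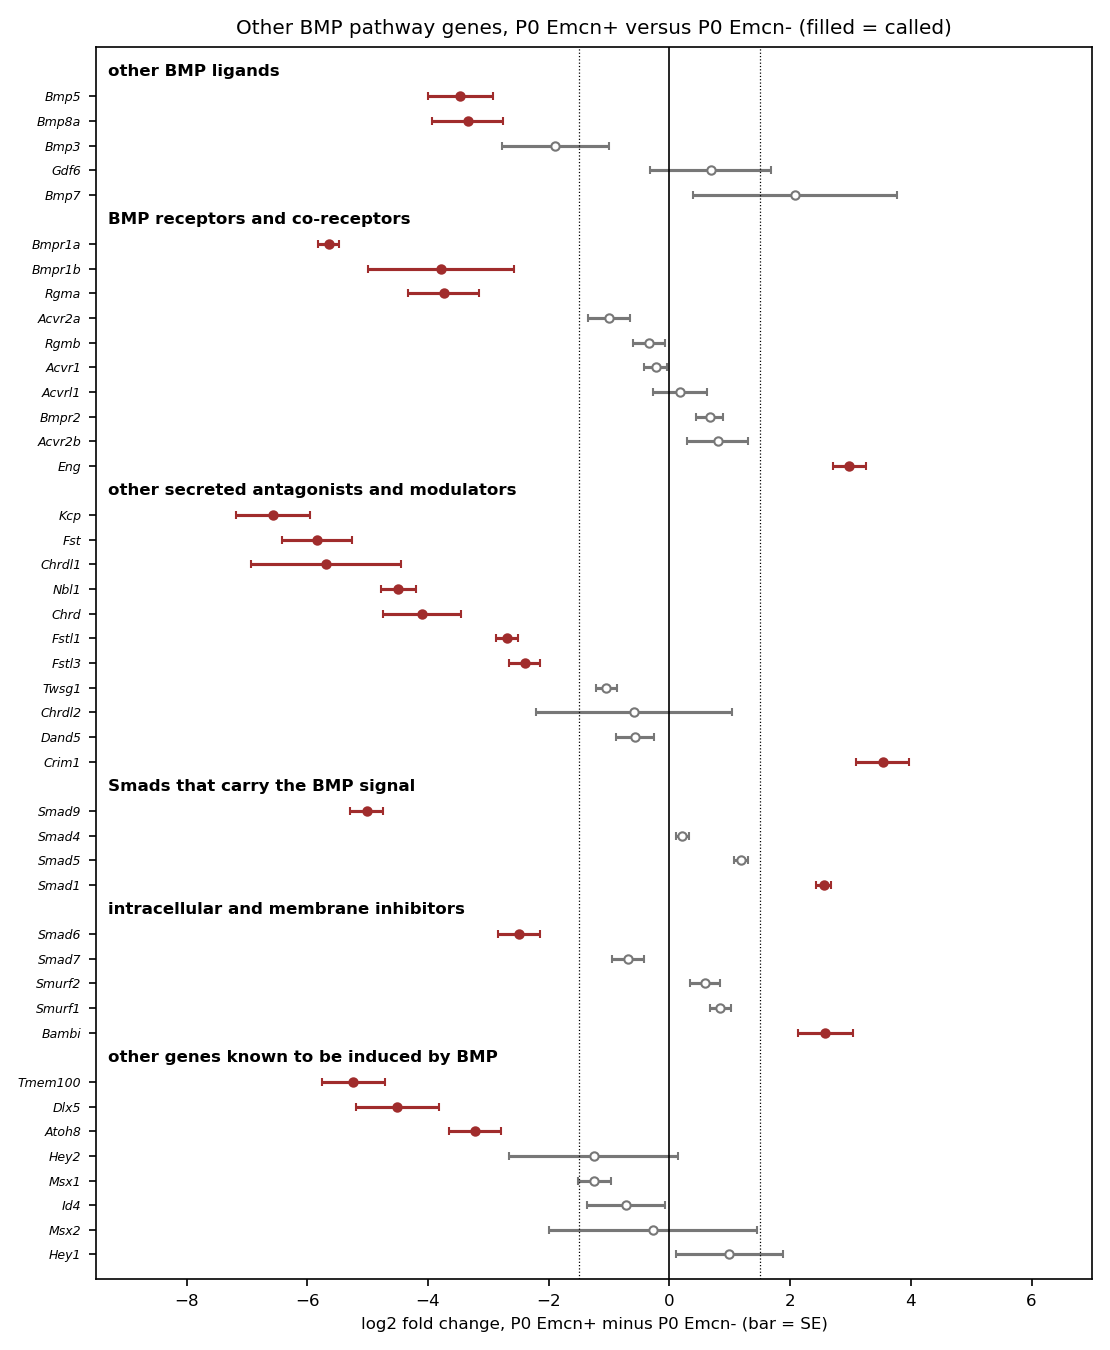
Log2 fold change (horizontal axis, P0 Emcn+ minus P0 Emcn- BMECs, bars showing 1 SE) of 43 other BMP pathway genes grouped by role, with filled points for called genes and dotted lines at 1.5 in either direction; 4 tested genes with 0 counts in a group are not drawn, and values of genes with a few counts in a group, such as Bmpr1b, depend on the prior count. Secreted antagonists and modulators lie mostly to the left, with Crim1 (3.53) the exception among those called, and Eng, Smad1 and Bambi are the other genes called higher.

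In lung cells, 2.13% of all genes tested were called higher and 1.7% lower than in P0 Emcn- BMECs. Among the other antagonists and modulators, 1 was called lower, Fst at 35.2 and 44.6 CPM (log2 fold change -2.76, edgeR adjusted p = 0.0118). The call was lost when only these groups were fitted (-2.77) and without either lung library, at -2.62 (without replicate 1) and -2.91 (without replicate 2). Bmp5 had 1 count in lung cells against 296, a ratio of 345 (95% counting interval 61.5 to 1.37e+04), and Hey1, a transcription factor that BMP and Notch signals induce, 3 counts against 366, a ratio of 142 (48.3 to 693). The Hey1 call was lost when either lung library or P0 Emcn- replicate 1 was left out, at log2 fold changes of -5.85 (lung replicate 1), -7.42 (lung replicate 2) and -5.43. These intervals cover counting error only. Dlx5 was called lower and Eng higher, the latter just past the fold limit (1.51) and inside it at 1.45 with the replicate block, 0.98 without lung replicate 2 and 1.40 without P0 Emcn- replicate 1. No Smad and no inhibitor of the lists was called in lung cells by edgeR.

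In MSC, several other ligands were called higher. Against P0 Emcn- BMECs 6 of the 8 tested (11 listed) were called higher and 0 lower, beside 11.3% and 7.45% of all genes tested. Bmp7, Bmp15 and Gdf5, among the 6, passed the low-count filter only through their MSC levels. The count of calls here and, for Bmp7, against passaged cells is thus partly set by the filter. Bmp15 and Gdf5 had 21 and 16 counts in MSC against 0 in P0 Emcn- BMECs. The median log2 fold change was 3.81, or 2.53 with genes at 0 counts set to their bound. Against passaged cells 5 were called higher and Bmp8a lower, with a median of 2.80, beside 8.42% and 5.81% of all genes called higher and lower. Gdf6 was at 9.15 and 39.0 CPM in MSC, 1.23 and 0.908 CPM in P0 Emcn- and 0.825 to 5.93 CPM in P1 to P3 cells (log2 fold changes 4.51 and 3.34, edgeR adjusted p = 0.00908 and 0.00402), with the calls lost without MSC replicate 2 (3.16 and 1.99) and, against P0, without P0 Emcn- replicate 1 (4.79). Bmp7 had 299 counts in MSC against 1 in P0 Emcn- BMECs, a ratio of 217 (95% counting interval 38.6 to 8.59e+03). Bmp3 was at 10.8 and 5.05 CPM against 0.504 and 2.32 CPM in P0 and 0.175 to 0.717 CPM in P1 to P3 cells (2.72 and 4.19, edgeR adjusted p = 0.028 and 0.000574), the call against P0 being lost without MSC replicate 1 (2.03), without P0 Emcn- replicate 1 (1.87) and with the replicate block (2.35, adjusted p = 0.0755).

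The type I receptor Bmpr1b was at 14.2 and 13.7 CPM in MSC and at 1.16 CPM or less in all other libraries, with log2 fold changes of 5.59 against P0 Emcn- (edgeR adjusted p = 0.000674) and 4.13 against passaged cells (edgeR adjusted p = 0.000196). It was the receptor called in both comparisons, out of 10 tested. Of 8 genes known to be induced by BMPs, 2 were called higher and 1 lower against P0 Emcn- BMECs, and 6 higher and 1 lower against passaged cells, with medians of 0.48 and 1.90. Of all genes tested, 11.3% were called higher and 7.45% lower against P0 Emcn- BMECs, and 8.42% and 5.81% against passaged cells. Hey2, a relative of Hey1, was at 3.37 and 6.94 CPM in MSC against 0.151 and 0.101 CPM in P0 Emcn- and 0.0717 to 0.408 CPM in P1 to P3 cells (log2 fold changes 5.27 and 3.97). Tmem100 went the other way at 1.52 and 3.26 CPM, against 14.9 to 19.5 CPM in P1 to P3 cells (log2 fold change -2.96, edgeR adjusted p = 0.000512). Among the other antagonists and modulators, Crim1 was called higher and Kcp lower against P0 Emcn- BMECs. Against passaged cells, Chrdl1 (2.31) and Chrdl2 were called higher and Kcp lower. Chrdl2 had 40 counts in MSC against 0 in P1 to P3 cells, at least 36.7-fold higher against 3 counts over the group. Its MSC libraries ran from 0.152 to 0.982 CPM, and it passed the low-count filter only through MSC. The Chrdl1 call was lost without MSC replicate 1 (1.44), without P1 replicate 2 (2.19) and without either P2 or either P3 library (2.25 to 2.39). It was also lost with ashr shrinkage and with batch c only. MSC had a mural marker sum of 989 to 1206 CPM, against 99.2 to 152 CPM in P0 Emcn- BMECs and 40.2 to 78.1 CPM in P1 to P3 cells, and an osteolineage marker sum of 126 to 211 CPM, against 51.9 to 185 CPM and 18.7 to 22.9 CPM; their part in these differences was not tested.

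Over passages, few genes of the lists were called. Between P0 and P1, 5.77% of all genes tested were called higher and 3.07% lower in P1. In the 6 lists edgeR called 0 genes higher and 1 lower, Hey1 (log2 fold change -4.47, edgeR adjusted p = 0.0217). Hey1 was at 8.56 and 2.62 CPM in P0 and at 0.166 to 0.577 CPM in all passaged libraries. The Hey1 call was lost without P0 Emcn- replicate 1 (-3.35) and without either P1 library (-4.57 for replicate 1, -4.38 for replicate 2). Between P1 and P3, 0 of the tested genes of the lists were called by edgeR, against 0.0773% of all genes higher and 0.144% lower. At an unadjusted p under 0.05 there were 6 higher and 6 lower in the lists, and the share of all genes at that limit was not counted. Bmp8a, chosen here after its values were seen, was at 6.42 and 6.28 CPM in P1, 12.8 and 10.3 CPM in P2, 17.0 and 14.4 CPM in P3 and 14.9 CPM in P4, the same direction in both batches.

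The 9 genes had few patterns in common over the 8 condition means. On log2(CPM + 1) values, Bmp2 and Bmper were nearly mirror images (Pearson r = -0.98), Bmp2 and Grem1 had r = -0.75 and Bmp6 and Id2 r = -0.80, whereas Bmp2 and Bmp4 had 0.47. The Id genes were not alike, with r of 0.19 (Id1 and Id2), 0.30 (Id1 and Id3) and 0.24 (Id2 and Id3). Among 11303 genes with at least 10 CPM in a condition, the genes closest to Bmp2 were Rab11fip5, Nhlrc3 and Myzap (each r = 0.99). Closest to Bmp4 were Limch1 (0.97), Palmd and Bnip2 (0.96 each), and closest to Bmper were Steap4, Obsl1 and Slc4a3 (1.00 each). For Id1 the nearest were Ppp1r3b (0.93), Panx1 (0.92) and AI506816 (0.90). The 8 points share their libraries and normalization, and for Bmp2 and Bmper P0 Emcn+ BMECs stand far from the rest, so these values are descriptions without a test.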

How the data were processed

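Per the labels and the methods, the authors made libraries with the KAPA RNA HyperPrep kit, trimmed reads and mapped them to GRCm38 with STAR in nf-core RNASeq, and quantified the transcripts of an Ensembl annotation with Salmon, and used tximport to reach gene level. The deposited table holds counts as whole numbers for 44674 genes, whose rounding is not described; 8 symbols are blank and 21 are duplicates, none among the genes described. Positions and exon lengths are from GENCODE M21, which holds 44118 of the identifiers.

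CPM were scaled by library totals. Fits used R 4.3.3 and edgeR 4.0.16: TMM factors, filterByExpr (minimum count 10, minimum total 15), a quasi-likelihood fit of the 15 libraries with 1 coefficient for each condition (7 residual and 3.07 prior degrees of freedom), and Benjamini-Hochberg adjustment over 19401 genes. A call needed adjusted p under 0.05 together with a log2 fold change beyond 1.5 in either direction. Replicates, by the methods independent biological samples, differed beyond counting noise in all 7 replicated conditions (chi-square per degree of freedom 38.61 to 129.5). By the labels, libraries of a batch share a replicate number, except that batch c holds both MSC libraries; deviations from group means correlated by 0.135 to 0.333 in batches a and d and 0.524 to 0.702 in b and c, beside 0.0209 to 0.21 for conditions that share no batch. The replicate block adds 2 batch terms. Other alternatives were DESeq2 1.42.0 (Wald test, and shrinkage by ashr 2.2.63), RLE factors, library totals, no filter, at least 50 counts in 2 libraries, only the groups compared, no fold limit, passaged libraries of batch c only and each library left out. Tested on simulated counts with 200 genes changed 4-fold, the fit called 154 for P0 Emcn+ against P0 Emcn- (18375 genes) and 139 for P3 against P1 (18270 genes).

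The genes, lists and markers were chosen with earlier results of these data known. Pathway genes were named by list, at most 3 per list and comparison, from called genes with at least 5 CPM in the higher group, and others where a count was small. A gene of the lists is not reported here and is left out of their counts. Single-cell data were not analysed here.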

Additional observations from a re-analysis of the deposited data

How the results depend on the processing

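Depth limited Nog, with 7 to 257 counts per condition, and 2 libraries per condition limited the rest. With 1 library left out, the lone library was assumed to vary like the other groups. Of the values of the 9 genes under alternatives, 689 kept direction and side of the threshold, 24 reversed, 19 newly passed and 14 no longer passed; of those of the named pathway genes, 449 kept both and 38 no longer passed. The causes were not tested. The block changed the calls of Bmp4 (P3 against P1), Grem1 (MSC against passaged cells) and, among named pathway genes, Eng and Bmp3, and no other.

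Reversed values were -0.016 (Bmper, lung) and -0.11 (Grem1, P1 against P0) with library totals, and, for Bmp2 in MSC against passaged cells, -0.094 with the block and -0.11 with batch c only. Without the fold limit, genes called went from 3725 to 6608 (P0 Emcn+), 3630 to 6853 (MSC against P0), 1715 to 3386 (P1) and 2761 to 6206 (MSC against passaged cells). Fitting only the groups compared gave 145 in place of 743 (lung), 2396 (MSC against P0), 968 (P1) and 153 in place of 43 (P3 against P1); the last was 304 with DESeq2, 149 with ashr, 170 without a filter and 106 with the block.

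Of the 9 genes, those called lower in P0 Emcn+ cells went from 1 to 2 with DESeq2, ashr, no filter or only these groups, and to 3 without the fold limit. In lung cells those higher went from 1 to 2 (DESeq2) or 0 (only these groups). Without the fold limit those lower went from 1 to 2 (MSC against P0) and from 0 to 1 (P1, P3 against P1, and MSC against passaged cells), and the block took those higher in P3 from 0 to 1.

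With each library left out, genes called ranged from 406 to 675 (lung), 805 to 2196 (P1) and 0 to 41 (P3 against P1). The 9 genes gave 1 to 2 lower in P0 Emcn+, 0 to 2 higher and 0 to 1 lower in lung, 1 to 3 higher and 0 to 1 lower in MSC against P0, and 1 to 3 higher and 0 to 1 lower in MSC against passaged cells. Log2 fold changes that turned sign were those in P0 Emcn+ of Bmp6 (-0.33 to 1.87) and Id1 (-0.94 to 0.29); in lung of Bmper (-0.12 to 0.24), Id3 (-0.27 to 0.047) and Nog (-5.97 to 0.30, the former against a group at 0 counts and no bound); in MSC against P0 of Bmp2 (-1.41 to 1.95), Bmp6 (-0.73 to 1.11) and Id1 (-0.46 to 0.066); in P1 of Grem1 (-0.34 to 0.56); in P3 against P1 of Bmp2 (-0.040 to 0.81), Grem1 (-0.021 to 0.48), Id2 (-0.22 to 0.013) and Id3 (-0.27 to 0.40); and in MSC against passaged cells of Bmp2 (-2.25 to 1.10).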
